A study of Mus musculus with 2 samples.

Results

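The Id family comprises 4 genes, Id1, Id2, Id3 and Id4, chosen by name from the 31053 genes counted in single cells of the mouse corneal epithelium. All 4 were detected and all 4 passed the filter on low counts in every comparison given here. Id proteins carry a helix-loop-helix domain but no basic DNA-binding region. They pair with E proteins (Tcf3, Tcf4 and Tcf12), the common partners of tissue-specific basic helix-loop-helix factors, and keep those partners off DNA. Id genes are textbook targets of bone morphogenetic protein (BMP) signalling through Smad transcription factors, and they can also be induced within minutes as part of the immediate early response.

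The cells came from dissected corneas of CycB1-GFP (Cyclin B1-GFP) mice, whose Cyclin B1 reporter makes cycling cells fluoresce green, and only live GFP-positive cells were collected by sorting. There was 1 group of 2 replicate libraries, with no untreated or wild-type arm, so every cell carried the reporter and the sort removed cells without it. The epithelium was held overnight in Dispase and then in trypsin before sorting. The labels do not give the age or number of the mice, nor whether the libraries came from different animals. The p-values thus measure at most the spread between these libraries, which may be technical. The tests below pool spread over genes, so a p-value may rest little on its own gene's spread.

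Library 1 held 3458 barcodes with 19001107 UMIs (unique molecular identifiers, each standing for 1 captured RNA molecule), and library 2 held 3294 barcodes with 18030874 UMIs. The filter of 500 or more genes and a mitochondrial share under 20% passed 3187 and 3001 cells, with a median of 5571 and 5886 UMIs. Each cell was placed by the share of Krt12 in its Krt12 and Krt15 UMIs. Krt12 is the keratin of the differentiated corneal lineage, and Krt15 marks basal cells of the limbus, the border zone where corneal stem cells lie, and of the conjunctiva. The low band (share under 0.4) held 663 and 959 cells of libraries 1 and 2, the mixed band (0.4 to 0.8) 161 and 164, and the high band (above 0.8), called corneal cells here, 2304 and 1821. The summed level of 6 limbal markers was 17911 and 20549 CPM (a gene's UMIs over all UMIs of the same cells, on the usual CPM scale) in the low band and 8823 and 4858 CPM in the high band, and that of 6 corneal markers ran the other way, at 7287 and 6746 against 34043 and 44493 CPM. The limbal markers include Krt15 and the corneal markers Krt12, so these differences were partly set by the bands themselves. The 6 conjunctival markers summed to 2381 and 2963 CPM in the low band, 2631 and 1581 CPM in the mixed band and 1921 and 852 CPM in the high band. The keratocyte genes Kera, Col1a1 and Col1a2, the endothelial genes Cdh5, Kdr and Emcn and the goblet cell genes Muc5ac, Spdef and Tff1 were at 0 in every band. The other goblet marker of the list, Agr2, was at 57.4 and 78.9 CPM in the low band and 3.68 and 6.15 CPM in the high band. The 5 keratocyte, 5 endothelial and 4 melanocyte markers summed to at most 7.53 CPM. The 6 immune markers reached 48.3 CPM, in the low band of library 2.

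The Id genes lie on 4 chromosomes of GRCm38, by the GENCODE annotation. Id1 is on chromosome 2 (152736251 to 152737410, plus strand), Id2 on chromosome 12 (25093799 to 25097140, minus strand), Id3 on chromosome 4 (136143497 to 136145755, plus strand) and Id4 on chromosome 13 (48261228 to 48266026, plus strand). Id4 overlaps 2 counted genes on the opposite strand, A330033J07Rik and Gm49291, and the strand setting of the counting is not given in the sources used here, so Id4 values are uncertain to that extent.

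RefSeq promoter sequences of GRCm38.p6 were matched for 3 of the 4 genes, Id2, Id3 and Id4. The 250 bases before the RefSeq start were searched on both strands for GGCGCC, a GC-rich Smad-binding sequence, for TGACGTCA, the cyclic AMP response element, for TGANTCA, the AP-1 site that Fos and Jun proteins bind, and for CANNTG, the E-box. None of these letter patterns overlapped another in the stretches shown. The sequences below carry the matches and are shown because Id2 and Id4 differed in direction over the keratin bands and in their relation to Fos. Capitals mark GGCGCC in both and CAGCTG, an E-box, in Id2 alone. Id2 is shown from chr12:25096254-25096342 on the minus strand, the 89 bases of its window outside annotated exons, and Id4 from chr13:48260866-48261115 on the plus strand. By GENCODE the Id2 stretch lies inside the Id2 gene, between annotated exons, whereas the Id4 stretch lies before the start of its gene.
Id2: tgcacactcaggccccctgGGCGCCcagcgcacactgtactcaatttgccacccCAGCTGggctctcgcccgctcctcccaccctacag
Id4: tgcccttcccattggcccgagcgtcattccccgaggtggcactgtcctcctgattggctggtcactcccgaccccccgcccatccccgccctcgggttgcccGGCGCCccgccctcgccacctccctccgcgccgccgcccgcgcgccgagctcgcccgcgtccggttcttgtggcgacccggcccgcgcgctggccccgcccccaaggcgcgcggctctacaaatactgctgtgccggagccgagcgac

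The Id3 window, which lies wholly inside an annotated exon and is not printed, held none of the 4 patterns. No window of the 3 genes held the AP-1 or cyclic AMP pattern. Over 32851 mouse promoter windows of the same length, 9.59% held GGCGCC, 6.75% the AP-1 pattern, 1.55% the cyclic AMP pattern and 66.2% an E-box. A match describes these letters only.

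The first comparison asked how Id levels followed the axis of the keratin bands. The low band holds limbal-type cells and also conjunctival-type ones, which are split further below. Id1, Id3 and Id4 stood higher in the low band than in corneal cells in both libraries, and Id2 stood lower. Sums of UMIs per library and band were compared with edgeR's quasi-likelihood test with library as a block, and 3 of the 4 genes passed an adjusted p of 0.05 (Id3 and Id4 higher, Id2 lower). At that threshold 32.5% of the 11138 genes tested were called (16.9% higher in the low band, 15.6% lower), so a called Id gene is not unusual in itself.

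Id1 was at 537 CPM in the low band, 482 in the mixed band and 258 in corneal cells of library 1, and at 356, 327 and 104 CPM in library 2. Corneal cells held the lowest level in each library, and the counting intervals of the low and mixed bands overlapped. The low band of library 1 was 1.01 higher than corneal cells on the log2 scale, and that of library 2 1.76 higher. The joint estimate of 1.37 (SE 0.27, 2.58-fold) narrowly missed the threshold (edgeR adjusted p 0.0537), and it passed under 7 of the alternatives tried.

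Id3, which lies closest to Id1 in its pattern, was at 302, 265 and 161 CPM across the low, mixed and high bands of library 1 and at 169, 206 and 67.5 CPM in library 2. Its highest band was therefore the low band in library 1 and the mixed band in library 2, and corneal cells were lowest in both. Low against high it rose 2.09-fold (log2 fold change 1.06, SE 0.23, edgeR adjusted p 0.0420).

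Id4 was the scarcest member, at 36.9, 19.5 and 21.2 CPM in library 1 and 34.0, 30.1 and 19.8 CPM in library 2. The low band was highest in both libraries, while the order of mixed and corneal cells differed between them. Id4 was 1.69-fold higher in the low band than in corneal cells (log2 fold change 0.76, SE 0.15, edgeR adjusted p 0.000198), by 0.75 in library 1 and 0.76 in library 2.

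Id2 ran the other way, at 210, 244 and 310 CPM from low to high in library 1 and at 118, 148 and 181 CPM in library 2. The order was the same in both libraries, with corneal cells highest. Its low band was 1.53-fold lower than corneal cells (log2 fold change -0.61, SE 0.09, edgeR adjusted p 1.19e-06).

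**Figure D1:**
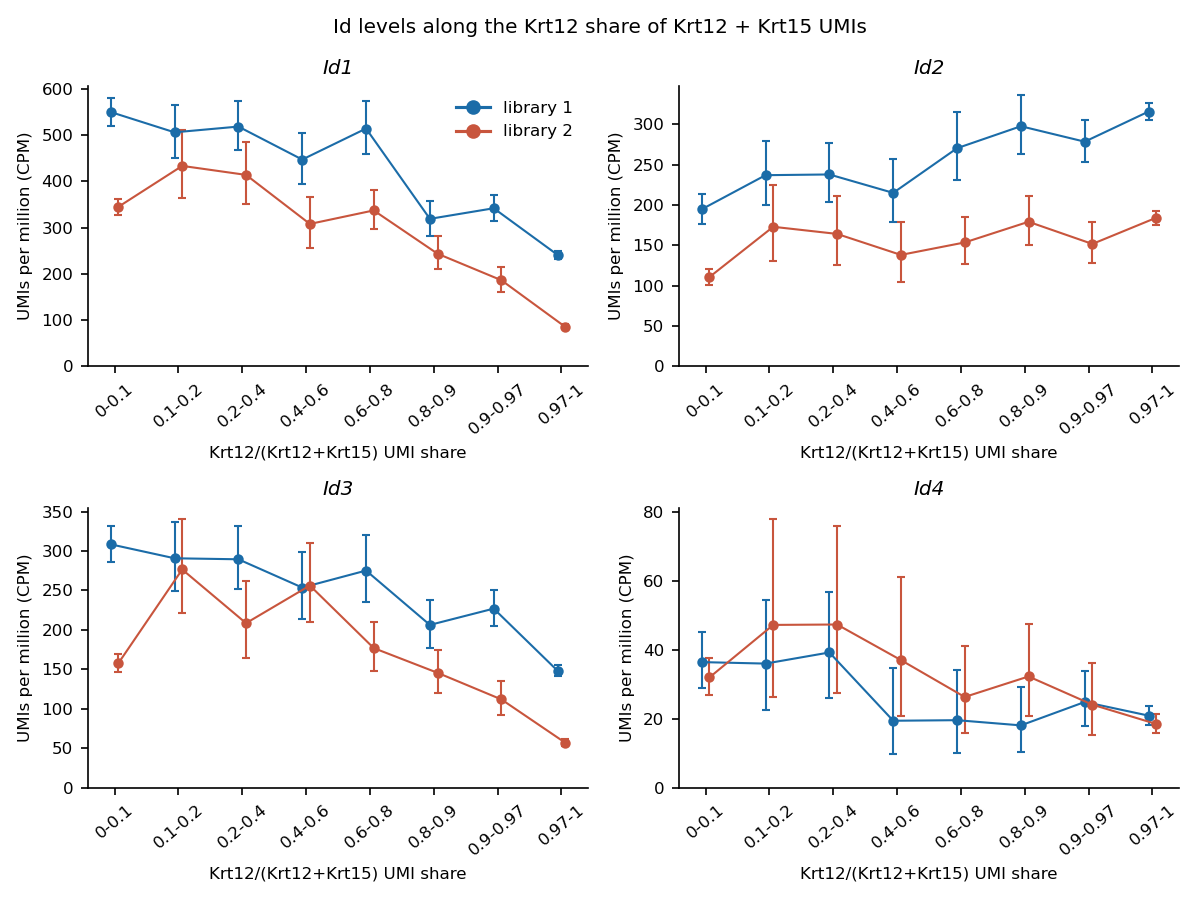
CPM (vertical axis) of each Id gene in 8 steps of the Krt12 share (horizontal axis), 1 line per library, with 95% Poisson intervals as bars. Id1 and Id3 were lowest in the last step (share above 0.97), at 241 and 148 CPM in library 1 and 85.1 and 57.0 CPM in library 2, and Id2 was highest there, at 316 and 184 CPM.

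In finer steps of the Krt12 share, Id1 stayed between 448 and 551 CPM in library 1 and between 308 and 434 CPM in library 2 up to a share of 0.8. Above 0.97, where most corneal cells lay (1927 and 1565 cells), it stood at 241 and 85.1 CPM. The Id3 level in that last step was 148 and 57.0 CPM, against 309 and 158 CPM at a share under 0.1. The lowest levels of Id1 and Id3 thus sat at the corneal end of the share and were not approached evenly along it.

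Mixed-band cells were also compared with corneal cells. Only Id2 passed in that comparison, lower in the mixed band by 0.35 on the log2 scale (SE 0.10, edgeR adjusted p 0.0206). Id1 was 1.22 higher (SE 0.28, adjusted p 0.193) and Id3 1.10 higher (SE 0.26, adjusted p 0.143), the sign being alike in both libraries, and neither passed by edgeR. Id4 differed by 0.24 (SE 0.22, adjusted p 0.646) with opposite signs in the libraries. Of all genes tested, 7.06% were called there (461 higher and 325 lower with edgeR, 303 and 99 with DESeq2).

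The CPM order was matched by the share of cells with a UMI, here after thinning every cell to 2000 UMIs, which left out 325 and 337 shallower cells. An Id1 UMI was found in 55.3% and 42.3% of low-band cells and in 31.0% and 15% of corneal cells (78.0%, 66.4%, 48.6% and 30.4% before thinning). For Id3 the thinned shares were 39.9% and 24.5% in the low band against 24.0% and 10.0% in corneal cells (57.8%, 43.0%, 44.5% and 27.1% before thinning). An Id2 UMI was found in 30.7% and 21.2% of low-band cells and in 40.7% and 29.6% of corneal cells (56.1%, 38.1%, 68.5% and 58.2% before thinning). Id4 was seen in 6.70% and 6.69% of low-band cells and in 4.36% and 3.27% of corneal cells (16%, 14.8%, 10.9% and 11.1% before thinning). In both libraries, thinned or not, the low band lay above corneal cells for Id1, Id3 and Id4 and below them for Id2.

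As a check on free RNA, the Id genes were read in 14 cells with 2 or more UMIs of the leukocyte genes Ptprc and Tyrobp, a rule set after the data were seen. Of their 35377 UMIs, 0 were from Id1, Id3 or Id4, with an exact 95% upper limit of 104 CPM for each. Id2, which immune cells are known to express, had 14 UMIs (396 CPM, 95% interval 216 to 664). The median depth of these cells was 2227 UMIs, and after thinning 0 of 7 held Id1 or Id3, with an exact 95% upper limit of 41.0%. That limit pools both libraries, and it lies below the Id1 share of low-band cells in library 1 (55.3%). Library 1 alone gave only 2 of these cells, with an upper limit of 84.2%, so its own background is not bounded below that share. The low-band share in library 2 (42.3%, 95% interval 39.0% to 45.6%) lies within counting error of the pooled limit. The limit is too wide to set a background for corneal cells.

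The second comparison took Fos, the founding member of the immediate early genes that tissue dissociation is known to induce, and set corneal cells with 5 or more Fos UMIs against corneal cells with none. The libraries differed in Fos. It stood at 1485 and 550 CPM in their corneal cells, and 64.1% and 27.5% of corneal cells had 5 or more Fos UMIs (1478 and 500 cells), while 308 and 524 cells had none. Cells with more Fos were also deeper, with a median of 6255 and 7227 UMIs against 4910 and 4733 in cells without Fos.

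In CPM, Id1, Id2 and Id3 stood higher in Fos-rich corneal cells in both libraries, far more so in library 1, and Id4 did not follow Fos. Id1 was at 64.8 CPM without Fos, 174 CPM with 1 to 4 Fos UMIs and 309 CPM with 5 or more in library 1, and at 82.4, 105 and 115 CPM in library 2. Without Fos the 2 libraries were close and their counting intervals overlapped (52.6 to 79.0 and 71.3 to 94.8 CPM), whereas with 5 or more Fos UMIs library 1 was 2.69 times library 2. The joint Id1 difference was 1.39 on the log2 scale (SE 0.61, edgeR adjusted p 0.595), from 2.34 in library 1 and 0.48 in library 2.

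Id3 was at 50.9, 121 and 188 CPM over the same Fos classes in library 1 and at 58.6, 64.5 and 76.1 CPM in library 2. As with Id1, the classes without Fos were alike and the Fos-rich class of library 1 stood far above that of library 2. The joint difference was 1.16 (SE 0.50, adjusted p 0.588 with edgeR), from 1.97 and 0.38.

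Id2 was at 134, 208 and 363 CPM in library 1 and at 145, 186 and 196 CPM in library 2. Its levels were ordered by Fos class in both libraries, and its joint difference was 0.99 (SE 0.37, edgeR adjusted p 0.538), from 1.53 and 0.44. Id4 was at 24.5, 20.5 and 20.8 CPM in library 1 and 21.3, 16.5 and 23.0 CPM in library 2. The joint Id4 difference was -0.03 (SE 0.20, edgeR adjusted p 0.975), with opposite signs in the 2 libraries.

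After thinning to 2000 UMIs, an Id1 UMI was found in 12.8% of corneal cells without Fos and 36.5% of those with 5 or more Fos UMIs in library 1, and in 13.9% and 14.0% in library 2. At equal depth the Id1 share thus did not differ with Fos in library 2 beyond counting error. For Id2 the shares were 21.6% and 46.0% in library 1 and 24.6% and 34.4% in library 2, and for Id3 10.4% and 28.4% in library 1 and 7.96% and 11.5% in library 2. The Id3 intervals in library 2 overlapped too (5.51% to 11.1% and 8.86% to 14.7%).

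By edgeR 0 of the 4 Id genes passed in the Fos comparison, with 0 at an unadjusted p under 0.05, and DESeq2 also called 0. The background was small too, with 0.926% of 10476 genes called (61 higher and 36 lower, against 31 and 10 with DESeq2). For Id1, Id2 and Id3 the sign was the same in both libraries and the size was over 1.5 times larger in library 1, so the joint values depend on that library.

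**Figure D2:**
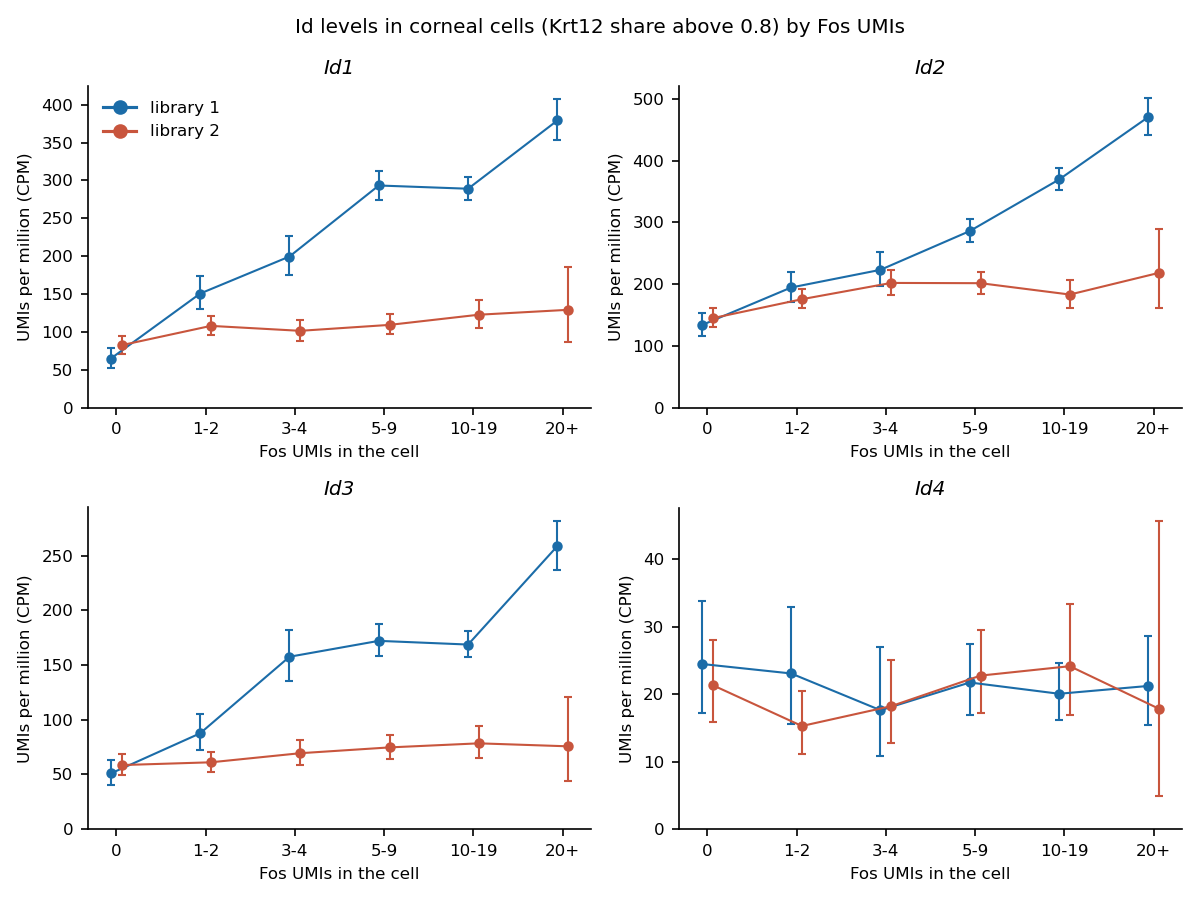
CPM of each Id gene in corneal cells (vertical axis) in 6 steps of Fos UMIs per cell (horizontal axis), 1 line per library, with 95% Poisson intervals. In library 1 Id1 ran from 64.8 to 379 CPM and Id2 from 134 to 471 CPM, while in library 2 they ran from 82.4 to 129 and from 145 to 218 CPM and Id4 stayed between 15.3 and 24.5 CPM in all steps.

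Finer Fos steps, added after the data were seen, gave the same picture. In library 1 Id1 ended at 379 CPM, Id2 at 471 CPM and Id3 at 259 CPM in 233 corneal cells with 20 or more Fos UMIs. In library 2 the corresponding 18 cells had 129, 218 and 75.7 CPM. Library 2 cells with 10 to 19 Fos UMIs (162 cells) had 123 CPM of Id1, below the 151 CPM of library 1 cells with 1 or 2 Fos UMIs (277 cells). The same number of Fos UMIs thus went with different Id1 levels in the 2 libraries.

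In low-band cells, also added after the data were seen, Id1 stood at 374 and 296 CPM without Fos and at 704 and 689 CPM with 5 or more Fos UMIs. There the libraries were alike at high Fos, although only 129 and 32 cells held it. Id3 was at 237 and 129 CPM without Fos and 384 and 479 CPM with it, and Id2 at 163 and 89.3 against 254 and 237 CPM. The differences were 1.02 for Id1, 1.20 for Id3, 0.95 for Id2 and 0.21 for Id4 on the log2 scale, with edgeR adjusted p of 0.806, 0.785, 0.686 and 0.941 (0.427% of genes called). The signs were the same in both libraries except for Id4.

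The third comparison put both axes together and read the keratin bands among cells of the same class of Fos UMIs. Among cells without a Fos UMI, Id1 and Id3 rose from corneal to low-band cells, Id1 by 4.46-fold. The levels were 374 and 296 CPM of Id1 in the low band against 64.8 and 82.4 CPM in corneal cells, and 237 and 129 CPM of Id3 against 50.9 and 58.6 CPM. Both low-band libraries lay above both corneal libraries for each gene, and the share of all genes that part this way was not counted. The log2 difference was 2.16 for Id1 (SE 0.16, edgeR adjusted p 4.51e-08), at 2.52 and 1.83 in the libraries, and 1.63 for Id3 (SE 0.23, edgeR adjusted p 0.000472), at 2.20 and 1.12. Of 10064 genes tested, 18% were called. The Id1 difference passed under all 10 tested alternatives (1.80 to 2.27, adjusted p up to 9.92e-05), while band limits of 0.2 and 0.9 ended the Id3 call (1.87, edgeR adjusted p 0.108).

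Among the same cells Id2 did not pass. It was at 163 and 89.3 CPM in the low band and 134 and 145 CPM in corneal cells, so the libraries disagreed in sign (0.30 and -0.69, joint -0.23, SE 0.21, edgeR adjusted p 0.550). Id4 was at 26.7 and 34.0 against 24.5 and 21.3 CPM (0.47, SE 0.25, adjusted p 0.243 with edgeR). This fit used 5 sums, with 1 residual degree of freedom, because the 29 mixed-band cells without Fos in library 1 fell below the minimum of 30 cells.

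**Figure D3:**
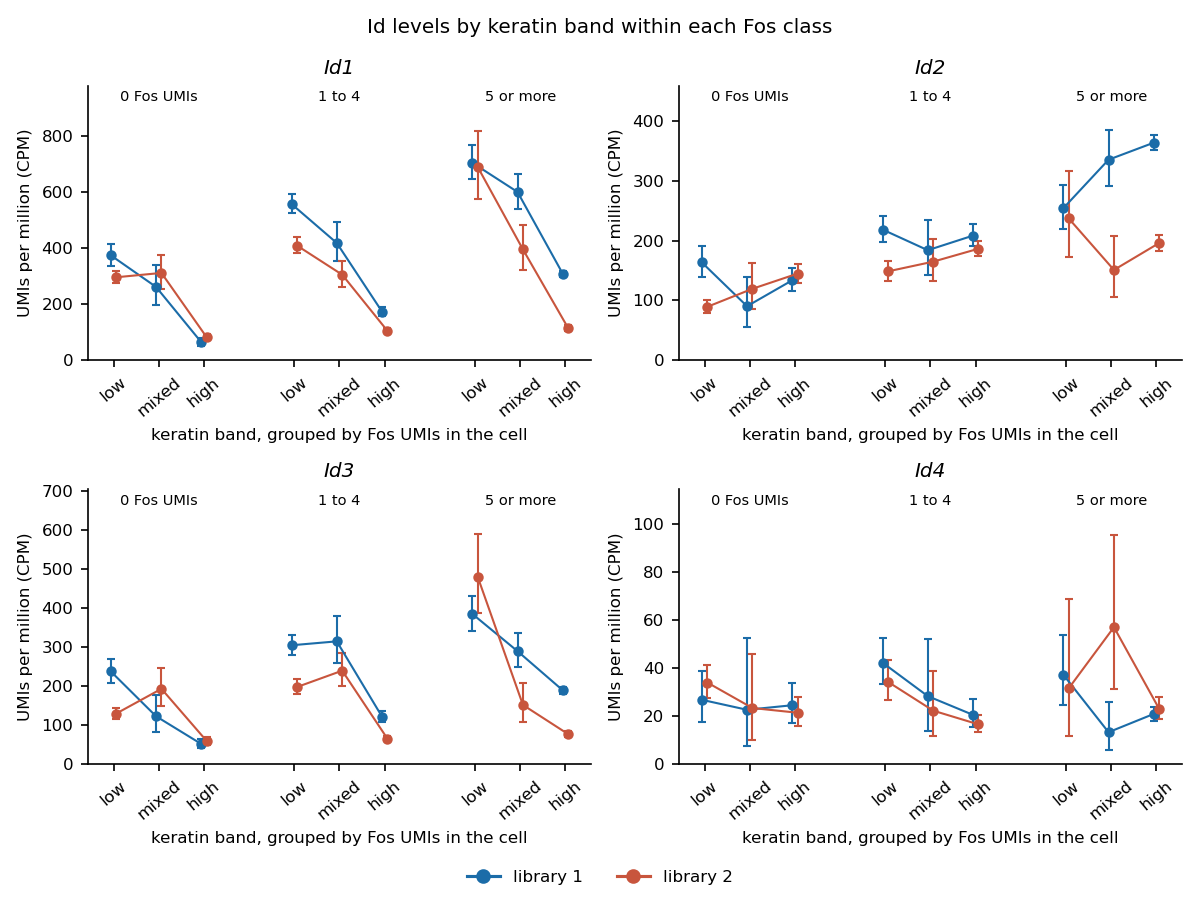
CPM of each Id gene (vertical axis) by keratin band within 3 classes of Fos UMIs (horizontal axis), 1 line per library, with 95% Poisson intervals. Id1 and Id3 were lower in corneal than in low-band cells in each Fos class and library, while Id2 was highest in corneal cells with 5 or more Fos UMIs of library 1, at 363 CPM.

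Among cells with 5 or more Fos UMIs, Id1 was at 704 and 689 CPM in the low band and 309 and 115 CPM in corneal cells, and Id3 at 384 and 479 against 188 and 76.1 CPM. Low-band values were again above corneal ones in both libraries, but the size differed between them (1.12 and 2.56 for Id1, 0.96 and 2.63 for Id3). The joint differences of 1.74 for Id1 (SE 0.57, edgeR adjusted p 0.390) and 1.62 for Id3 (SE 0.82, edgeR adjusted p 0.617) did not pass. Id2 (-0.29, SE 0.15, adjusted p 0.262) and Id4 (0.69, SE 0.31, adjusted p 0.151) did not pass with edgeR either. Thus 0 of the 4 were called by edgeR and 0 by DESeq2, against 12% of 8441 genes (474 higher and 539 lower with edgeR, 143 and 85 with DESeq2), and Id4 had an unadjusted p of 0.0267. This fit left out the 25 Fos-rich mixed-band cells of library 2. Fos itself was at 1361 and 1089 CPM in the low band of this class and at 1963 and 1109 CPM in its corneal cells. The class thus did not hold Fos equal across the bands in library 1.

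The difference between the keratin effects at high and at zero Fos was tested itself. It was -0.43 for Id1 (SE 0.77), -0.02 for Id2 (SE 0.47), -0.00 for Id3 and 0.22 for Id4 (SE 0.38), each with an edgeR adjusted p of 1.00. The sign was negative in library 1 and positive in library 2 for Id1 (-1.42 and 0.72), Id2 (-0.90 and 0.95) and Id3 (-1.27 and 1.50). With errors of that width a dependence on Fos was not detectable. Over all genes 0.0776% were called (8 genes with edgeR, 3 with DESeq2), and 511 had an unadjusted p under 0.05.

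Over all kept cells the libraries themselves differed in 3 of the 4 genes. Id1 was at 327 and 189 CPM in libraries 1 and 2, Id2 at 286 and 162 CPM, Id3 at 196 and 105 CPM, and Id4 at 24.2 and 24.5 CPM. The log2 ratio of library 1 to library 2 was 0.79 for Id1 (95% interval 0.73 to 0.85, counting error only), 0.82 for Id2 (0.76 to 0.89), 0.90 for Id3 (0.82 to 0.98) and -0.02 for Id4 (-0.20 to 0.17). With 1 library on each side there is no replicate check. Among corneal cells without Fos the ratio was -0.35 for Id1, -0.12 for Id2 and -0.20 for Id3. Its sign was the reverse of the overall ratio, but the counting intervals of the 2 libraries overlapped for each of these genes. Among corneal cells with 5 or more Fos UMIs the ratio was 1.42, 0.89 and 1.31. In low-band cells without Fos, library 1 stayed above library 2 by 0.34 for Id1, 0.87 for Id2 and 0.88 for Id3. Fos and library thus moved together with the Id levels in corneal cells, and their parts cannot be told apart.

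The low band was then split by Gpha2, a limbal gene that encodes a glycoprotein hormone subunit, and Krt13, a keratin of the conjunctiva. Cells with Gpha2 and no Krt13 UMI numbered 354 and 527, and cells with Krt13 and no Gpha2 numbered 78 and 101. Left out of the comparison were 151 and 278 cells with both and 80 and 53 cells with neither. Cells with both had 467 and 350 CPM of Id1 and 195 and 106 CPM of Id2. Their Id3 was at 205 and 141 CPM, and their Id4 at 23.1 and 26.8 CPM. Of the 4 genes, 3 were higher in Gpha2 cells (Id2, Id3 and Id4), and Id1 did not differ past the threshold. In this comparison 18.3% of 8519 genes were called (8.05% higher, 686 genes, and 874 lower with edgeR, against 87 and 273 with DESeq2), from 4 sums with 1 residual degree of freedom. Its p-values rest on spread pooled over genes, so the smallest of them say little about a gene's own spread between the libraries.

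Id1 was at 593 and 359 CPM in Gpha2 cells and 519 and 337 CPM in Krt13 cells, a difference of 0.09 on the log2 scale (SE 0.11, edgeR adjusted p 0.641). Id3 was at 404 and 203 CPM in Gpha2 cells and 123 and 67.4 CPM in Krt13 cells, and rose 3.06-fold (log2 fold change 1.62, SE 0.16, edgeR adjusted p 6.98e-23). The Krt13 cells of library 1 were below the Gpha2 cells of library 2, so the Id3 levels did not overlap, and the share of all genes that part this way was not counted. Id4 was at 48.6 and 44.9 CPM in Gpha2 cells against 14.8 and 5.95 CPM in Krt13 cells, from 7 and 3 UMIs (log2 fold change 2.13, SE 0.39, edgeR adjusted p 7.96e-07). Id2 was at 233 and 138 CPM against 146 and 73.4 CPM, higher in Gpha2 cells within each library while the groups overlapped across libraries (0.71, SE 0.17, edgeR adjusted p 0.000221). Id1 and Id3, so similar across the keratin bands, thus had different values here, though the difference between the 2 genes was not tested. DESeq2 called Id3 and not Id2 or Id4. In Krt13 cells Id3 and Id4 were not above the corneal cells of the high band (161 and 67.5 CPM of Id3, 21.2 and 19.8 CPM of Id4). The low-band rise of Id3 and Id4 thus did not hold for Krt13 cells. Their Id1 was above that of corneal cells (258 and 104 CPM) and their Id2 below it (310 and 181 CPM).

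Fos was at 509 and 192 CPM in Gpha2 cells and at 449 and 105 CPM in Krt13 cells, and it passed the same test (0.36, SE 0.12, edgeR adjusted p 0.0266). Its part in the Id differences of this split was not tested.

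All cells were sorted for Cyclin B1-GFP, so position in the cycle was read among corneal cells by the share of G2/M gene UMIs in all S and G2/M gene UMIs, cut into 3 classes of equal size within each library. Id4 rose 1.89-fold from the S-rich to the G2/M-rich class (log2 fold change 0.92, SE 0.17, edgeR adjusted p 0.000421). It stood at 14.7, 21.3 and 28.2 CPM in library 1 and 12.2, 21.0 and 25.7 CPM in library 2, in the same order in both. Id1 fell by 0.35 on the log2 scale (SE 0.12, edgeR adjusted p 0.0462). Its levels were 281, 283 and 201 CPM in library 1 and 106, 97.1 and 106 CPM in library 2, and the change came from library 1 (-0.57) far more than from library 2 (-0.06). DESeq2 did not call it (-0.33). Id3 (-0.34, SE 0.15, edgeR adjusted p 0.122) and Id2 (-0.19, SE 0.08, edgeR adjusted p 0.109) did not pass. Of 10727 genes, 25.8% were called.

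Within single cells the members overlapped only in part. In thinned low-band cells Id3 was found in 48.2% of cells with Id1 and 29.6% of cells without it in library 1, and in 34.9% and 16.9% in library 2. In corneal cells the corresponding values were 29.9% and 21.3% in library 1 and 14.3% and 9.29% in library 2. Id2 was found in 41.1% of corneal cells with Id1 and 40.4% of those without in library 1, and in 28.3% and 29.8% in library 2. In low-band cells it was found in 37.5% with Id1 and 22.3% without in library 1, and in 23.9% and 19.3% in library 2. Thus Id3 was seen more often beside Id1 in both bands, and Id2 in the low band, while the Id2 shares of corneal cells were nearly equal with and without Id1. In library 2 the counting intervals overlapped for Id3 in corneal cells (10.2% to 19.4% and 7.81% to 10.9%). They also overlapped there for Id2 in low-band cells (19.6% to 28.5% and 15.9% to 23.0%). At this depth many cells that hold a transcript give 0 UMIs, and these shares describe detection.

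Over the 16 sums of library, band and Fos class with 30 or more cells, the gene most like Id1 among 5826 genes was Id3 (Pearson r 0.97 of log2 levels), and the gene most like Id3 was Id1. Next to Id1 came the ribosomal protein genes Rps9 (0.94), Rplp1 (0.92) and Rpl10a (0.91) and the choline kinase gene Chka (0.90). The genes most like Id2 were immediate early genes: Junb (0.95), Fosb (0.94), Jun (0.94), Atf3 (0.92) and Zfp36 (0.91). Id4 was most like Zbed3 (0.89) and Supt16 (0.86). The sums share their 2 libraries and their depth, and they were cut by Fos class and by Krt12 and Krt15. Part of the likeness among genes that vary with Fos or with these keratins was thus set by the classes. These values describe likeness over these sums only.

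The other genes of the pathway were read from lists by role, beginning with BMP and related ligands. Of 5 ligands tested in the keratin comparison, 1 was higher in the low band and 2 were lower, where 16.9% of all genes tested were higher and 15.6% lower. Bmp2 rose by 2.81 on the log2 scale (SE 0.36, edgeR adjusted p 3.8e-07) at a mean of only 4.37 CPM, while Bmp3 (-1.54) and Tgfb1 (-0.36) fell. Of 8 receptors, 1 was higher (Tgfbr2, 0.95) and 1 lower (Tgfbr1, -1.78), and the BMP receptors Bmpr1a (0.25, edgeR adjusted p 0.101) and Bmpr2 (0.25, edgeR adjusted p 0.136) did not pass. Of 5 Smad transducers, only Smad1, which carries BMP signals, passed (0.98, SE 0.12, edgeR adjusted p 2.48e-07).

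Among 11 inhibitors of the pathway, 4 were higher in the low band and the other 7 did not pass, where 32.5% of all genes tested were called. The secreted antagonist Sostdc1 rose by 3.62 (SE 0.17, edgeR adjusted p 1.19e-16), the activin-binding protein Fst by 1.43, the decoy receptor Bambi by 1.28 and the BMP-binding protein Twsg1 by 0.61. The median over the 11 was 0.19, against -0.01 over all genes tested. Of 3 other BMP targets tested, Runx2 (2.64) and Tcf4 (0.43) were higher and Dlx5 (-3.30, at a mean of 1.50 CPM) was lower.

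Of the 3 E proteins, the partners that Id proteins bind, Tcf12 (0.41, SE 0.11, edgeR adjusted p 0.00348) and Tcf4 (0.43, SE 0.15, edgeR adjusted p 0.0263) were higher in the low band, and Tcf3 was at 0.26 (SE 0.12, edgeR adjusted p 0.109). DESeq2 called none of the 3 (0). Of 22 other helix-loop-helix genes tested, 6 were higher, among them Mxd4 (1.26) and Epas1 (0.68), and 3 were lower, among them the sterol regulators Srebf1 (-1.31) and Srebf2 (-0.83), where 32.5% of all genes were called.

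Of 20 immediate early genes tested in the keratin comparison, 9 were lower in the low band, including Fos (-1.72), Zfp36 (-1.50), Ier2 (-1.18) and Junb (-0.88), and the other 11 did not pass. Their median was -0.60, and 15.6% of all genes tested were lower. Id2 (-0.61) lay on the side of these genes, and Id1, Id3 and Id4 on the other. Among cells without Fos, 1 of 18 was higher and 2 were lower, with a median of 0.34, where 18% of all genes were called.

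**Figure D4:**
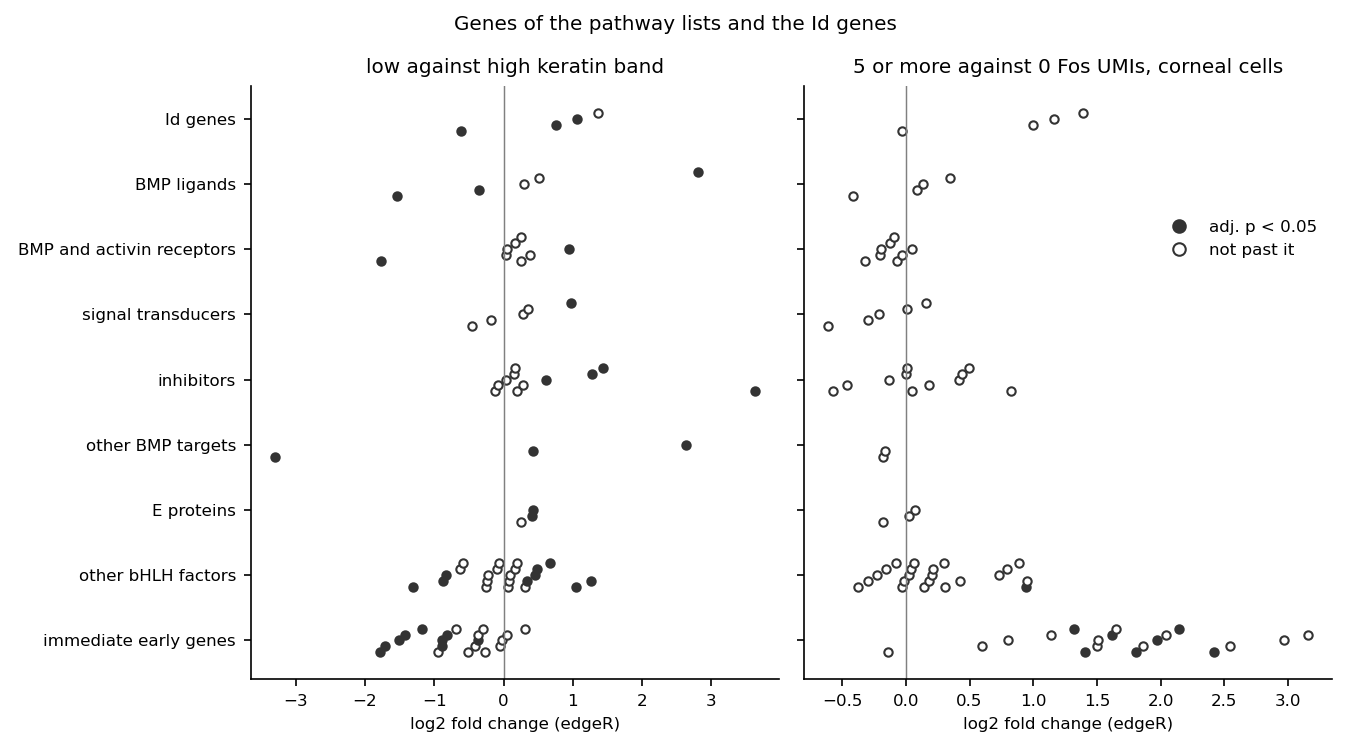
Log2 fold change (horizontal axis) of each tested gene of the lists and of the Id genes (rows), low against high keratin band on the left and 5 or more against 0 Fos UMIs in corneal cells on the right; filled points passed an edgeR adjusted p of 0.05. On the right only immediate early genes and Bhlhe40 have filled points, and the 4 Id genes, at 1.39, 0.99, 1.16 and -0.03, are all open.

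In the Fos comparison of corneal cells the lists parted. Of 19 immediate early genes tested besides Fos, 7 were higher with edgeR, led by Egr1 (2.14, SE 0.13, edgeR adjusted p 4.25e-10), Btg2 (1.62) and Jun (1.97), and the median was 1.65. Over all genes tested, 0.926% were called in either direction. Of the 32 BMP-pathway and E protein genes tested, edgeR called 0 (4 at an unadjusted p under 0.05), and DESeq2 called 0. Their median was -0.02, against 0.01 over all genes tested. Bhlhe40 was the only other helix-loop-helix gene called (0.94, SE 0.12, edgeR adjusted p 9.06e-05).

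In the split of the low band, the Gpha2 cells had more Sostdc1 (2.01, SE 0.31, edgeR adjusted p 2.26e-09), Fst (3.08) and Tcf12 (1.02) than the Krt13 cells, beside Id2, Id3 and Id4. By edgeR 5 of the 28 BMP-pathway and E protein genes tested were higher and the other 23 did not pass. Of all genes tested there, 8.05% were higher and 18.3% were called in either direction. DESeq2 called 1 of the 28.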

How the data were processed

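Single-cell RNA was measured in sorted GFP-positive corneal epithelial cells, in 1 group of 2 libraries (10x Genomics 3′ v3). The authors deposited 1 matrix of whole-number UMI counts for both libraries, not normalized. The submitters' processing notes name Cell Ranger 3.1.0, Seurat 5.0.0 and the builds GRCm38 and mm10, with no word on strand setting or annotation. Barcode endings told the libraries apart and are not linked to the labelled replicate numbers. The libraries shared 5 barcode sequences.

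No doublet caller was run. Leaving out the 3% of cells with the most UMIs was an alternative. UMI counts were summed per library and cell class, for classes of 30 or more cells with at least 5 Krt12 and Krt15 UMIs (116 cells had fewer), and tested in R 4.3.3 with the quasi-likelihood test of edgeR 4.0.16 (robust fit, filterByExpr, TMM scaling). Library was a block, since sums of 1 library come from 1 sample. Adjusted p-values are Benjamini-Hochberg values over all genes tested, with a threshold of 0.05. DESeq2 1.42.0, no filter, no block, stricter cells, thinning to 2000 UMIs, other band limits, 20 keratin UMIs and each library alone were alternatives. Genes that define a class were left out of its fits' results. Intervals are 95% exact Poisson (CPM) or Clopper-Pearson (shares) and cover counting error only. The fits were tested on simulated data. Genes most like a member were the 5 with the highest correlation and a mean of at least 20 CPM. List genes named are up to 4 per list with the smallest adjusted p, apart from Bmpr1a, Bmpr2, Tcf3 and, in the split of the low band, Fos, which were chosen after their values were seen. The members, lists and tests were chosen with earlier results of these data known.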

Additional observations from a re-analysis of the deposited data

How the results depend on the processing

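Values are log2 fold changes. Id1 passed in the keratin comparison with no filter on low counts (1.36), DESeq2 (1.37), 1000 genes and under 10% mitochondrial UMIs (1.36, edgeR adjusted p 0.0356), 2000 UMIs (1.36), the deepest 3% of cells left out (1.43), thinning (1.47) and 20 keratin UMIs (1.41). Without the replicate block, Id2 (-0.61) and Id3 (1.00) no longer passed there, nor did Id2 mixed against high (-0.35), Id1 over the cycle (-0.42), or Id2 (0.70) and Id3 (1.62) in the split of the low band. The labels' replicate numbers pair nothing across groups, since there is 1 group.

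Mixed against high, Id1 passed with no filter (1.18), DESeq2 (1.23) and thinning (1.31), Id3 with no filter (1.07), DESeq2 (1.13) and the deepest cells left out (1.24), and Id2 was lost with DESeq2 (-0.35) and band limits of 0.2 and 0.9 (-0.25). Those limits also ended the Id3 call in cells without Fos (1.87, edgeR adjusted p 0.108). Over the cycle the Id1 call was lost with DESeq2 (-0.33) and with other cell types left out (-0.34), while Id2 passed with the deepest cells left out (-0.23) and thinned (-0.33), and Id3 with no filter (-0.35) and the deepest cells left out (-0.40). In the split of the low band, DESeq2 lost Id2 (0.71) and Id4 (2.17), and thinning turned Id1 (-0.080).

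Signs turned among values near 0 that never passed. For Id4 in the Fos comparison they were 0.043 (1000 genes), 0.031 (deepest cells left out), 0.076 (thinned) and 0.21 (low band). For the difference between Fos classes they were 0.025 (Id2, DESeq2) and, for Id3, 0.10 (DESeq2), 0.013 (2000 UMIs), 0.021 (deepest cells left out) and 0.00055 (other cell types left out). The libraries alone gave 1.01 to 1.76 for Id1, -0.62 to -0.60 for Id2, 0.86 to 1.31 for Id3 and 0.75 to 0.76 for Id4 in the keratin comparison, and 0.44 to 0.75 for Id4 among Fos-rich cells. The cause of these changes was not tested.

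Genes called moved by over 1.5 times for several settings. In the keratin comparison edgeR called 1884 higher and 1739 lower, DESeq2 983 and 792, the fit without the replicate block 864 and 687, and thinned cells 1106 and 1025. In the Fos comparison they were 61 and 36, and across alternatives 0 to 152 and 0 to 88. Among mixed-band cells they were 64 to 592 higher and 12 to 496 lower, among cells without Fos 204 to 1121 and 158 to 948, over the cycle 239 to 1261 and 355 to 1674, and in the split of the low band 87 to 680 and 273 to 857. The keratin comparison among Fos-rich cells and the difference between Fos classes were not run with thinning, other band limits or 20 keratin UMIs, which left a class under 30 cells.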

Other observations

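Corneal cells with 5 or more UMIs of Krt16, a keratin of stressed and hyperproliferative epithelium, were read after the data were seen (167 and 42 cells). They had 362 and 261 CPM of Id1, against 241 and 93.8 CPM in corneal cells without Krt16, and 125 and 113 CPM of Id2, against 349 and 186 CPM. Id3 was at 63.4 and 47.4 CPM, against 184 and 67.6 CPM, and Id4 at 4.72 and 8.89 CPM from 7 and 3 UMIs, against 24.4 and 20.9 CPM. The Id3 level in library 2 rests on 16 UMIs, and its interval (27.1 to 77.0 CPM) holds the level of cells without Krt16. Fos was lower in the Krt16 cells, at 968 and 252 CPM against 1604 and 562 CPM, and its part was not tested. Among cells without Fos, Krt16 cells (14 and 9) had 67.7 and 239 CPM of Id1, against 60.5 and 71.8 CPM without Krt16, and 16.9 and 98.6 CPM of Id3, against 57.1 and 56.1 CPM, from 8 and 17 UMIs of Id1 and 2 and 7 UMIs of Id3. These levels come from classes set after seeing the data and carry no test.

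Corneal cells with 3 or more UMIs of the interferon-induced gene Ifit3 were nearly all in library 2 (68 cells, against 8 in library 1). In library 2 they had 181 CPM of Id1, against 102 CPM in corneal cells without Ifit3, and 169 CPM of Id2 against 183 CPM. The 8 cells of library 1 had 145 against 260 CPM of Id1 (8 UMIs) and 472 against 309 CPM of Id2 (26 UMIs), with intervals that hold the levels without Ifit3.

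Cells with under 5 keratin UMIs numbered 59 and 57. Their Id1 level was 361 CPM in library 1 and 57.0 CPM in library 2, and their Id2 level 228 and 273 CPM.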
